A study of Homo sapiens with 5 samples.

Results

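The genes described here are 10 members of the transforming growth factor beta (TGF-beta) pathway: 3 ligands, 3 receptors, 2 SMADs and 2 target genes. They were taken by symbol, and every probe set that the platform's annotation assigned to 1 of them alone was used. All 10 genes were found, with 28 of the 54675 probe sets of the array, among 19775 named genes. The study measured expression with Affymetrix arrays in human renal cell carcinoma lines. SN12C is the parental line, labelled non-metastatic, with 2 biological replicates. LM1 is the line of lung-metastatic generation 1, with 1 array, and LM2 is that of generation 2, with 2 biological replicates. The labels name no treatment for any line and do not say how LM1 and LM2 were derived. The study asked which genes differ as metastatic activity increases. All values are log2 signals as deposited, so that a difference of 1 unit is a 2-fold difference in signal.

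TGF-beta ligands are secreted in a latent form and, once released, bind the type II receptor TGFBR2, which recruits and phosphorylates the type I receptor TGFBR1. TGFBR1 phosphorylates SMAD2 and SMAD3, which bind SMAD4, enter the nucleus and regulate target genes, among them SMAD7 and PMEPA1, both of which dampen the signal. In carcinoma cells the pathway is known both for restraining growth and for promoting a mesenchymal, invasive state.

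The arrays differed in quality. For the beta-actin control, the 3' minus 5' probe set difference was 3.43 units in LM1, against 0.07 to 0.47 in LM2 and SN12C. For GAPDH it was 2.09 in LM1, against -0.07 to 0.14 in LM2 and SN12C. The LM1 array therefore stands apart, and every LM1 value below rests on it alone. The LM2 arrays correlated at r = 0.997 across the 33376 tested probe sets and the SN12C arrays at 0.962, and SN12C replicate 2 was closer to LM2 replicates 1 and 2, at 0.981 and 0.984, than to its own pair. These correlations are across probe sets, which are not independent replicates. The renal marker PAX8 (9.19 to 9.82 over the 5 arrays) and the epithelial keratins KRT8 (12.46 to 13.21) and KRT18 (14.04 to 14.72) passed the filter in every line. KRT19, a further keratin, read 11.76 and 11.74 in LM2 and 12.01 in LM1, against 8.92 and 9.54 in SN12C. In its other tested probe set LM2 differed from SN12C by 0.07. CDH16, EMX2, EPCAM and CDH1 were below the signal filter, which is set at 6.03 and must be reached on 2 arrays. Of 6 leukocyte markers 3 (CD3E, CD14 and ITGAM) passed it, at 6.19 to 7.18, while PTPRC and LYZ did not.

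The 250 bases before an annotated RefSeq start (GRCh38.p14) are shown for the 4 members whose LM2 and SN12C arrays did not overlap and whose line means differed by at least 0.5 units, in the probe set with the highest mean. Where a gene has several starts, the start with the most matches was taken, and the first along the chromosome where starts tied. Capitals mark CAGAC or its reverse complement GTCTG, a core that SMAD3 and SMAD4 are known to bind.
TGFB2, chr1:218345086-218345335, plus strand: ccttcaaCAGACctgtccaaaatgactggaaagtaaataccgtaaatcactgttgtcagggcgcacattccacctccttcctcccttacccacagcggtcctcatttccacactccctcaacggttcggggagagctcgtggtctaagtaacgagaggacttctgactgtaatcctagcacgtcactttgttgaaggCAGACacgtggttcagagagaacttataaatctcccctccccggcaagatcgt
TGFBR3, chr1:91886152-91886401, minus strand: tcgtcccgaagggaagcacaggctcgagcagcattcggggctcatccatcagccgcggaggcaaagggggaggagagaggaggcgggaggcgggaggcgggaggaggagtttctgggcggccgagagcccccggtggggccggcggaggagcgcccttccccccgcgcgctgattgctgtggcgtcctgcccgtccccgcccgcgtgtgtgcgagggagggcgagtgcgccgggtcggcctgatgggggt
SMAD3, chr15:67166281-67166530, plus strand: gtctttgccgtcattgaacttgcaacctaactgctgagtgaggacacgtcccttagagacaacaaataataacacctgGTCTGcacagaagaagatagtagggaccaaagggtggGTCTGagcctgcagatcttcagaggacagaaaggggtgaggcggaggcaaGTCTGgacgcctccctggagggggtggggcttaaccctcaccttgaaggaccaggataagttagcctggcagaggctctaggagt
TSC22D1, chr13:44437249-44437498, minus strand: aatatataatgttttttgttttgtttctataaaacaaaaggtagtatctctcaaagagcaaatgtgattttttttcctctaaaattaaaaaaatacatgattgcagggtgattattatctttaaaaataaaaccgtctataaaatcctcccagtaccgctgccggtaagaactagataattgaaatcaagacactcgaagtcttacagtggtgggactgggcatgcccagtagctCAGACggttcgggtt
The TGFB2 window holds the core 2 times, the SMAD3 window 3 times and the TSC22D1 window 1 time, while the letters are absent from that of TGFBR3. All 10 members matched the promoter table, with 32 starts, and 14 of these windows (43.8%) hold the core on either strand, against 38% of all 35116 windows. The palindrome GTCTAGAC, which holds no CAGAC or GTCTG of its own, is in 0 of the 32 windows and in 0.182% of all. A match describes the letters only.

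In LM2 against SN12C, 2 of the 10 genes, TGFB2 and TSC22D1, lay higher on both LM2 arrays than on both SN12C arrays in the probe set with the highest mean. The receptor TGFBR3 and the SMAD genes SMAD3 and SMAD7 lay lower. The arrays of the other 5 genes overlapped. In the limma fit 0 of the 23 tested member probe sets passed an adjusted p of 0.05 over all 33376 probe sets, where 0% were called and the lowest adjusted p was 0.328. With either SN12C replicate left out, the spread rests on the LM2 pair alone. Probe sets passed without replicate 2 and not without replicate 1. Of the members' probe sets with the highest mean, those passing without replicate 2 included TGFBR1 (0.89), whose LM2 values are equal, and TSC22D1 (1.42). At an unadjusted limma p under 0.05 there were 6 member probe sets, against 9.52% of all probe sets. Groups did not overlap for 5 of the 10 genes, against 39.4% of all 15024 tested genes read the same way. Over all tested probe sets this was 15 of 23 for members, against 36.7%. By direction, 2 of 10 lay higher, against 25.3% of all genes, and 3 of 10 lower, against 14.1%. The median difference over the 10 genes was -0.07, against 0.03 over all genes. With 2 arrays in each line, the smallest two-sided p of an exact permutation test is 0.333. Of 8 fibroblast markers 5 were tested and 3 lay higher in LM2, COL3A1 (3.04), THY1 (1.31) and PDGFRA (0.14). DCN (-0.06) and PDGFRB (0.24) overlapped, and the SN12C arrays of COL3A1 stood 1.99 units apart. Over the 4 tested probe sets of COL3A1 the difference ran from 0.65 to 3.04. Log2 signals of all 8, with those below the filter, summed to 58.78 and 58.72 in LM2, against 52.79 and 55.93 in SN12C. COL3A1 and THY1 had the largest differences of the 8 and dominate this sum. LUM, FAP and POSTN were below the filter, and CDH5 of the endothelial markers was too. Of 4 tested endothelial markers 1 lay higher in LM2 (VWF) and 2 lower (TEK and KDR, with KDR at -1.42). The difference of VWF was 0.38, and -0.003 in its other tested probe set. The part of the markers in the results was not tested. Because the RNA comes from whole cultures, a lower signal cannot tell fewer expressing cells from less RNA per cell.

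Of the 28 member probe sets, 23 passed the signal filter, 17 of them with all 5 arrays at or above 6.03 and 6 with fewer arrays. The 5 that did not pass were 1 each of TGFB2, TGFB3, TGFBR1, PMEPA1 and TSC22D1, and they were not tested.

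Among the ligands, TGFB2 had the clearest separation of LM2 and SN12C. Its probe set with the highest mean, 228121_at, read 7.91 and 8.02 in LM2, against 7.22 and 7.27 in SN12C. Both LM2 arrays lay above both SN12C arrays, and the gap between lines exceeded the gap within either pair. The difference was 0.72 ± 0.08 (SE; limma adjusted p = 0.328), or 0.74 and 0.69 when taken from each SN12C array in turn. The other probe sets of TGFB2 pointed the same way. The probe set 209909_s_at read 7.15 and 7.35 in LM2, against 5.10 and 6.39 in SN12C, and 220407_s_at read 7.23 and 7.20 in LM2, against 5.84 and 6.51 in SN12C. Both had SN12C values below the filter on replicate 1, so their differences of 1.51 ± 0.52 (adjusted p = 0.542) and 1.04 ± 0.27 (adjusted p = 0.457) are uncertain in size. The probe set 220406_at read 6.54 and 6.40 in LM2, against 6.28 and 6.35 in SN12C. The untested 209908_s_at read 6.01 and 6.25 in LM2, against 4.90 and 5.54 in SN12C. In all 5 probe sets of this ligand, the LM2 arrays lay above the SN12C arrays.

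TGFB1, the most widely expressed isoform, did not separate LM2 from SN12C. Its 203085_s_at read 10.14 and 9.68 in LM2, against 9.76 and 9.99 in SN12C, and the SN12C arrays lay between the LM2 arrays. The difference was 0.04 ± 0.21 (limma adjusted p = 0.952), and the second probe set gave 0.09 ± 0.11. TGFB3, another isoform, read 6.65 and 6.77 in LM2, against 7.0 and 6.77 in SN12C. The value of SN12C replicate 2 was identical to those of LM1 and LM2 replicate 2, and the lines overlapped at a difference of -0.18 ± 0.12 (limma adjusted p = 0.679). Its other probe set, 1555540_at, stood between 5.44 and 5.50 on all 5 arrays, below the filter.

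Of the receptors, TGFBR3 was lower in LM2 in both of its probe sets. TGFBR3, also called betaglycan, is a co-receptor without kinase activity that presents ligand, TGFB2 above all, to TGFBR2. Its 226625_at read 7.71 and 8.04 in LM2, against 8.51 and 8.77 in SN12C, and 204731_at read 7.91 and 8.07 in LM2, against 8.23 and 8.82 in SN12C. The lines did not overlap in either. The differences were -0.77 ± 0.18 (limma adjusted p = 0.434) and -0.54 ± 0.25 (limma adjusted p = 0.647).

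TGFBR1, the type I receptor kinase, read 9.44 on both LM2 arrays in 224793_s_at, against 8.55 and 9.44 in SN12C. The LM2 values were identical to that of SN12C replicate 2, so the difference of 0.45 ± 0.36 (limma adjusted p = 0.679) rests on SN12C replicate 1 and was 0.00 without it. The second probe set, 206943_at, read 7.89 and 8.11 in LM2, against 7.09 and 7.82 in SN12C, and its difference was 0.91 against SN12C replicate 1 and 0.18 against replicate 2. TGFBR2, the type II receptor kinase, read 10.14 and 10.22 in LM2, against 9.78 and 10.51 in SN12C. The LM2 arrays lay between the SN12C arrays, at a difference of 0.04 ± 0.30 (limma adjusted p = 0.965). Its 207334_s_at read 7.58 on both LM2 arrays, against 6.52 and 7.89 in SN12C.

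SMAD3 was lower on both LM2 arrays than on both SN12C arrays in all 4 of its probe sets. The probe set 218284_at read 8.55 and 8.64 in LM2, against 9.23 and 9.71 in SN12C. Its difference of -0.88 ± 0.20 (limma adjusted p = 0.434) was -0.64 from SN12C replicate 1 and -1.12 from replicate 2. The probe set 205397_x_at, of a type that can bind several transcripts, read 8.08 and 7.90 in LM2, against 8.64 and 8.57 in SN12C. The values of 205398_s_at were 8.45 and 8.46 in LM2, against 8.66 and 8.99 in SN12C. Those of 205396_at were 7.55 on both LM2 arrays, against 7.63 and 8.38 in SN12C. Across these probe sets the differences ran from -0.88 to -0.36, and the smallest gap to SN12C replicate 1 was that of 205396_at, at -0.08.

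SMAD7, an inhibitory SMAD that competes with SMAD3 for the receptor and is itself induced by the pathway, was read by 1 probe set. It stood at 6.27 and 5.91 in LM2, against 6.68 and 6.31 in SN12C. The lines did not overlap, but LM2 replicate 1 lay just below SN12C replicate 2 and LM2 replicate 2 was under the filter value. The difference was -0.41 ± 0.21 (limma adjusted p = 0.679).

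The target genes did not point the same way in LM2. TSC22D1, a leucine zipper gene first known as stimulated by TGF-beta, read 10.20 and 10.31 in LM2, against 8.84 and 9.63 in SN12C, in 215111_s_at. Both LM2 arrays were higher, at a difference of 1.02 ± 0.32 (limma adjusted p = 0.516) that was 1.42 against SN12C replicate 1 and 0.62 against replicate 2. A second probe set, 235315_at, read 8.10 and 8.40 in LM2, against 7.80 and 7.89 in SN12C, a difference of 0.41 ± 0.14 (limma adjusted p = 0.542). A further one, 243133_at, read 6.37 and 6.03 in LM2, against 6.03 on both SN12C arrays. PMEPA1, a membrane protein that holds back SMAD2 and SMAD3 activation, read 6.20 and 6.48 in LM2, against 6.48 and 6.56 in SN12C, in 222449_at. LM2 replicate 2 and SN12C replicate 1 had the same value. In 217875_s_at it read 6.22 and 6.08 in LM2, against 6.39 and 6.44 in SN12C, without overlap and with a difference of -0.26 ± 0.09 (limma adjusted p = 0.541).

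**Figure D1:**
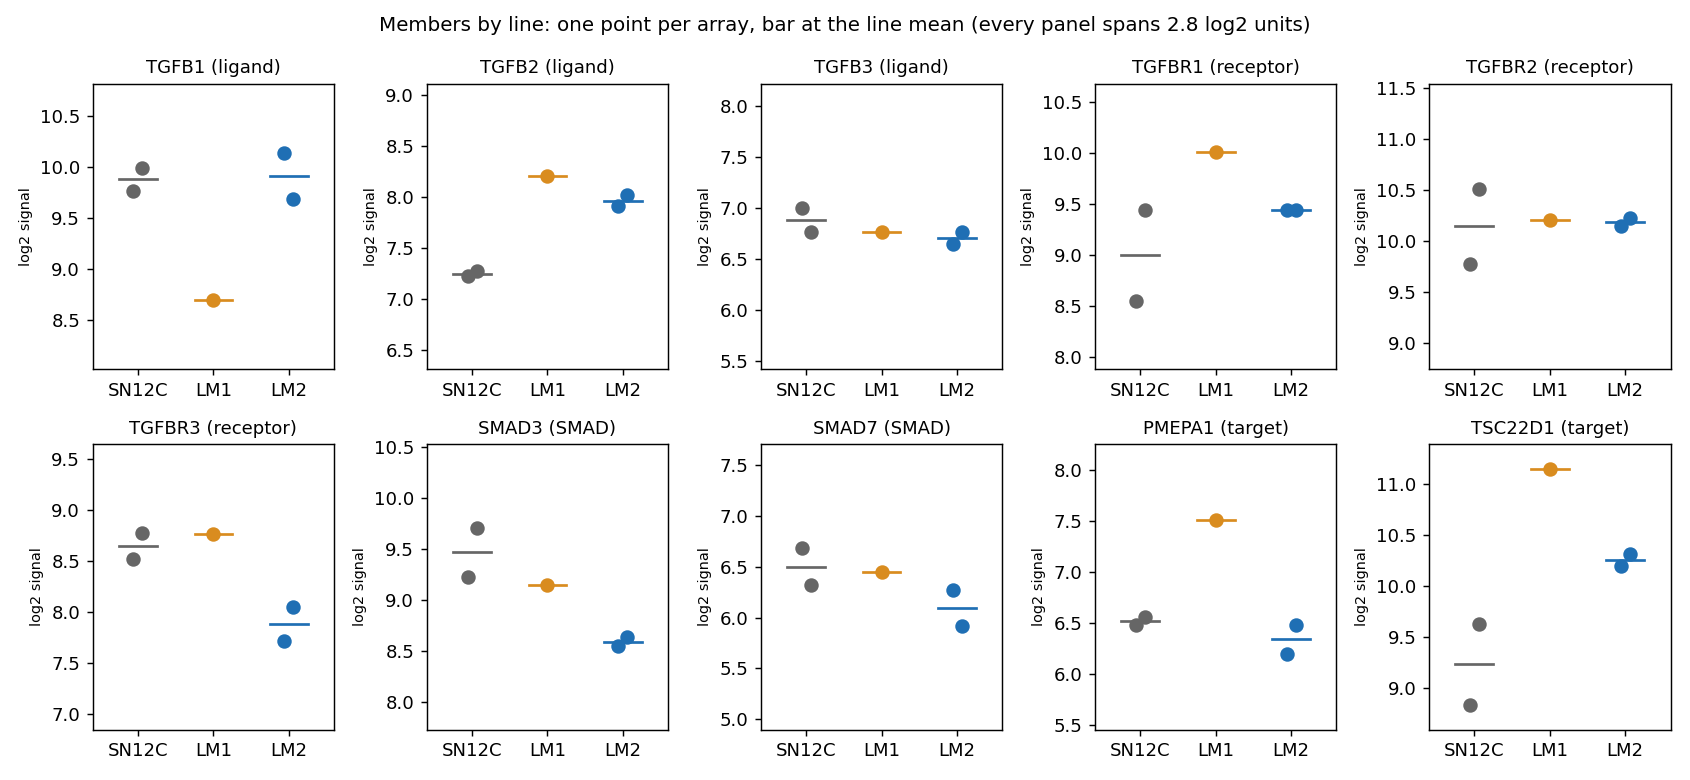
Log2 signal (y axis) of each gene's probe set with the highest mean in SN12C, LM1 and LM2 (x axis), with 1 point per array and a bar at the line mean. TGFB2 and TSC22D1 lie higher and TGFBR3, SMAD3 and SMAD7 lower on both LM2 arrays than on both SN12C arrays.

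The tested probe sets of 1 gene had differences of the same sign in LM2 and diverged in LM1. Of the 8 genes with at least 2 tested probe sets, 0 had differences of both signs in LM2 against SN12C, compared with 38.6% of all 7195 such genes. In LM1 against SN12C, 7 of the 8 had both signs, TGFB1 being the exception, compared with 56.6% of all such genes. Against SN12C replicate 2 alone, 4 of the 8 had both signs in LM1, against 55.1% of all such genes, and 1 in LM2, against 32.6%. The range between a gene's probe sets had a median of 1.43 units in LM1 and 0.28 in LM2 over the 8 genes, and of 0.70 and 0.27 over all 7195. The range was larger in LM1 for 8 of 8 members and for 80.3% of all genes. The high 3' excess of the LM1 array moves with this divergence, and its part in it was not tested. Both comparisons share the SN12C arrays. Some LM2 differences counted by sign were near 0, as for TGFB1 (0.04 and 0.09) and 1 probe set of TGFBR2 (0.04). Untested probe sets were not counted. Those of PMEPA1 (0.07) and TGFB3 (0.03) had the opposite sign to the tested ones in LM2, and those of TGFB2, TGFBR1 and TSC22D1 the same.

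**Figure D2:**
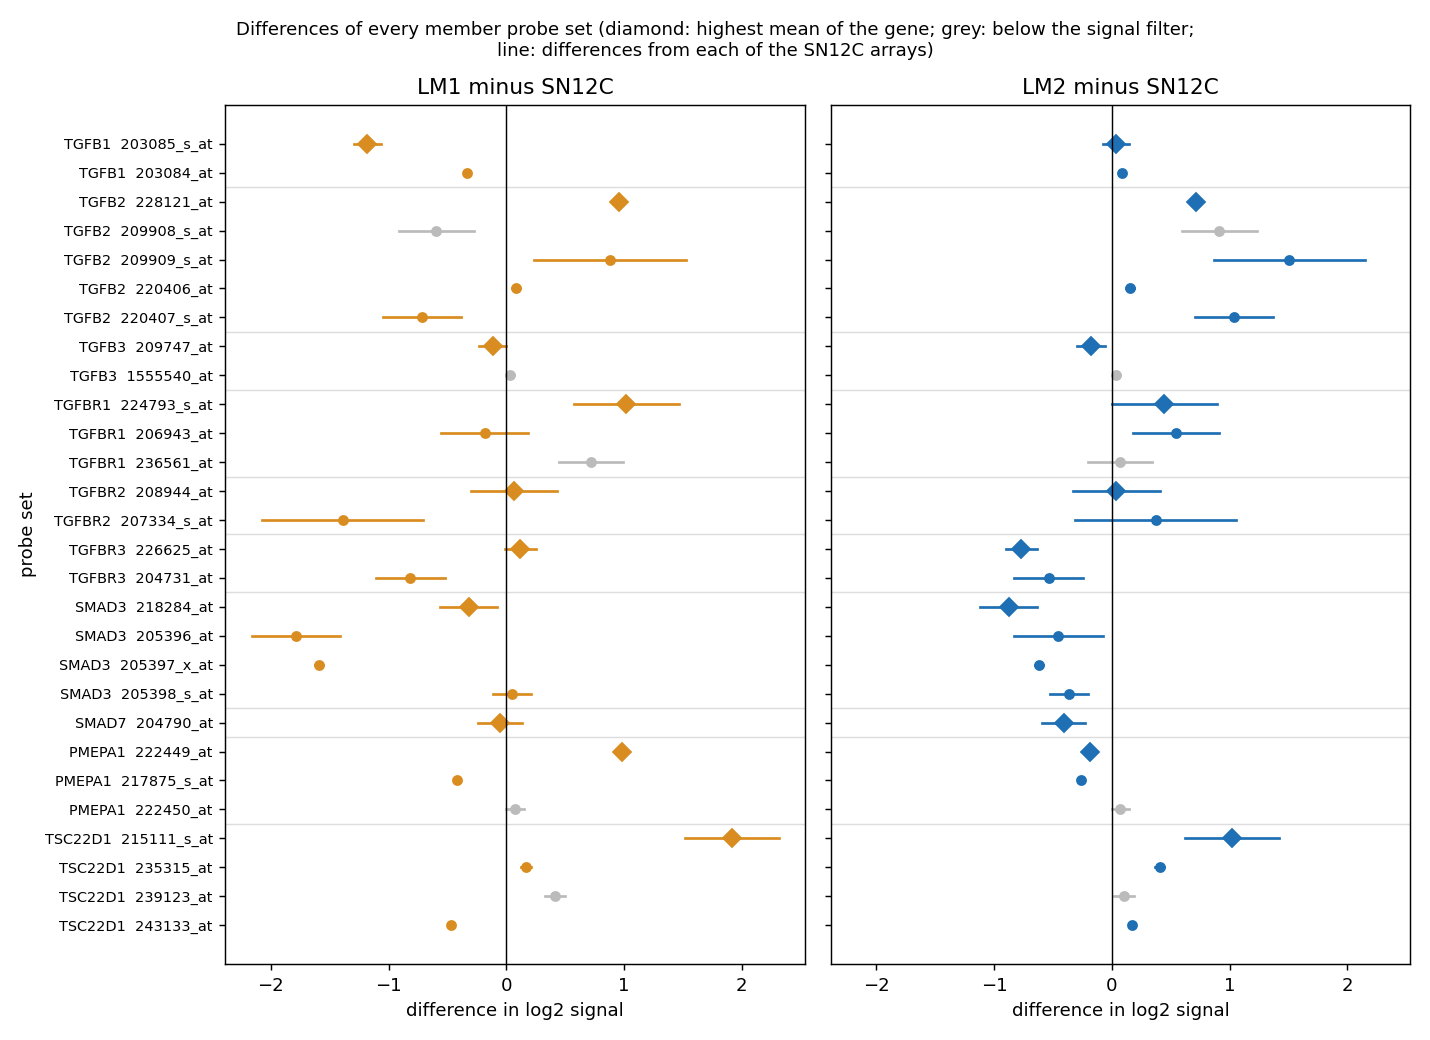
Differences in log2 signal (x axis) of LM1 (left) and LM2 (right) from the SN12C mean for all 28 member probe sets (y axis). Each line spans the differences from both SN12C arrays, diamonds mark the probe set with the highest mean and grey marks those below the filter. The 4 SMAD3 probe sets lie between -0.88 and -0.36 in LM2 and between -1.79 and 0.05 in LM1.

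In LM1 against SN12C, TGFB2, TGFBR1, PMEPA1 and TSC22D1 lay above both SN12C arrays in the probe set with the highest mean, and TGFB1 and SMAD3 lay below both. In limma 0 of the 23 member probe sets passed, with 0% called over all probe sets, and 7 had an unadjusted p under 0.05, against 23.2% of all. The limma fit assumes that the single LM1 array varies like the other lines. Over all probe sets, 6379 passed without SN12C replicate 1 and 10386 without replicate 2. In these fits 1 LM1 array is set against 1 SN12C array, and the spread rests on the LM2 pair alone. Of the members' probe sets with the highest mean, TGFBR1, whose LM2 values are equal, passed in both (0.57 and 1.46). TSC22D1 passed without replicate 2 (2.31). LM1 lay outside the SN12C arrays for 6 of 10 genes, against 66% of all genes, with 4 higher, against 45.2%, and 2 lower, against 20.8%. Over all 23 tested member probe sets, LM1 lay higher in 7 and lower in 10, so the direction depended on the probe set read.

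TGFB2 read 8.20 on LM1 in 228121_at, above all other arrays, for a difference of 0.96 ± 0.10 from SN12C (limma adjusted p = 0.0805). The same ligand read 6.62 on LM1 in 209909_s_at, which lies between the LM2 and SN12C values, and 5.46 in 220407_s_at, below both SN12C arrays. TGFB1 stood at 8.69 on LM1 in 203085_s_at and 6.07 in 203084_at, below every LM2 and SN12C array in both, with differences of -1.18 ± 0.26 (limma adjusted p = 0.134) and -0.33 ± 0.14 (limma adjusted p = 0.283) from SN12C. No other of the 8 genes had probe sets of 1 sign in LM1.

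Among the receptors, TGFBR1 read 10.01 on LM1 in 224793_s_at, above every other array, but 7.27 in 206943_at, within the SN12C arrays. TGFBR2 read 10.21 in 208944_at, within the SN12C arrays, but 5.81 in 207334_s_at, below every other array. TGFBR3 was at 8.76 in 226625_at, within the SN12C arrays and above both LM2 arrays. In 204731_at it was at 7.71, below every other array.

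SMAD3 on LM1 read 9.15 in 218284_at and 8.87 in 205398_s_at, the second of these within the SN12C arrays. It read 6.22 in 205396_at and 7.02 in 205397_x_at, more than 1 unit below both SN12C arrays in each. The difference in 205397_x_at, -1.59 ± 0.13, had the lowest adjusted p of any member in any comparison (limma adjusted p = 0.0786). SMAD7 at 6.44 on LM1 lay within the SN12C arrays.

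TSC22D1 read 11.15 on LM1 in 215111_s_at, 1.92 ± 0.40 above SN12C (limma adjusted p = 0.126), and 5.56 in 243133_at, below every other array. PMEPA1 read 7.51 in 222449_at, 0.99 ± 0.16 above SN12C (limma adjusted p = 0.104), and 5.99 in 217875_s_at, below every other array. For both target genes, LM1 was thus the highest of the 5 arrays in the first of these tested probe sets and the lowest in the second.

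In LM2 against LM1, 0 of the 23 probe sets passed in limma, again with 0% called, and 8 had an unadjusted p under 0.05, against 20.9% of all. Without SN12C replicate 1 or 2 the spread again rests on the LM2 pair alone. Probe sets passed there, among them 224793_s_at of TGFBR1 (-0.57), whose LM2 values are equal. Both LM2 arrays lay above LM1 for 1 of the 10 genes, TGFB1, against 27% of all genes, and below it for 7, against 51.9%. This direction depended on reading each gene by its probe set with the highest mean. Over all 23 tested member probe sets, LM2 lay above LM1 in 12 and below it in 8. TGFB1 read 1.22 higher and PMEPA1 1.17 lower in LM2 than in LM1 in the probe sets with the highest means (limma adjusted p = 0.154 and 0.114). TGFBR3, also in its probe set with the highest mean, was 0.89 lower in LM2 (limma adjusted p = 0.177). The other tested probe sets of TGFBR3 and PMEPA1 pointed the opposite way, with LM2 higher than LM1 by 0.28 and 0.16. That of TGFB1 pointed the same way, with LM2 higher by 0.42. A strict order of the arrays by generation, SN12C, LM1, LM2, was seen for 1 of the 10 genes, SMAD3 in the falling direction, against 6.41% of all genes in either direction. Of all 23 tested probe sets, 3 had such an order, 218284_at of SMAD3 and, in the rising direction, 209909_s_at of TGFB2 and 235315_at of TSC22D1, against 4.84% of all probe sets. For SMAD3 the step from SN12C replicate 1 to LM1 was -0.08, within the gap of the SN12C arrays.

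The other genes of the pathway were read through a list of 61 genes, 57 of them tested, each by its probe set with the highest mean. In LM2 against SN12C 0 of the 57 passed in limma (lowest adjusted p = 0.352), with 0% called over all probe sets. An unadjusted limma p under 0.05 was seen for 9 of 57, against 9.52% of all probe sets. The arrays of 26 genes (45.6%) did not overlap, against 39.4% of all genes. Of these, 8 of 57 lay higher, against 25.3% of all genes, and 18 of 57 lower, against 14.1%; the same shares apply to the groups below. The list's median difference was -0.09, against 0.03 over all genes.

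Among genes of latency and activation, THBS1, which can release TGF-beta from its latent complex, read 9.76 and 9.64 in LM2, against 11.19 and 10.76 in SN12C. The integrin subunit ITGAV, part of integrins that activate latent TGF-beta, read 9.70 and 9.92 in LM2, against 10.47 and 10.74 in SN12C. Neither gene's arrays overlapped, and both lay lower in LM2. ITGB5, a partner of ITGAV, lay higher in LM2 at a difference of 0.58 ± 0.18 (limma adjusted p = 0.507), and LTBP2, of the latent TGF-beta binding proteins, at 0.09. Other probe sets pointed the opposite way, with 0.14 for 1 of THBS1 and -0.32 for 1 of LTBP2. Of the 9 tested genes of this group, 2 lay higher and 2 lower without overlap.

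Among other receptors, BAMBI, a pseudoreceptor that lacks the kinase and blocks signalling, read 8.14 and 7.97 in LM2, against 6.22 and 7.41 in SN12C, and 9.0 on LM1. All LM1 and LM2 values lay above both SN12C arrays, with an LM2 difference of 1.24 ± 0.48 (limma adjusted p = 0.580). ACVR1, a type I receptor of the BMP and activin branch, read 9.30 and 9.44 in LM2, against 10.21 and 9.98 in SN12C, and ACVRL1 had a difference of -0.12. Of the 6 other SMADs, SMAD5 alone did not overlap in the probe set with the highest mean. It read 9.52 on both LM2 arrays, against 8.71 and 9.49 in SN12C. The median of these SMADs was 0.39, but it was 0.80 against SN12C replicate 1 and -0.05 against replicate 2. In other probe sets the difference reached -1.31 for SMAD1 and -1.20 for SMAD9, and 0.56 for SMAD5.

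Of 12 adaptors, ubiquitin ligases and corepressors, 2 lay higher and 4 lower without overlap. TGIF1, a corepressor of SMAD targets, read 10.21 and 10.39 in LM2, against 11.17 and 10.65 in SN12C. The differences of its 3 tested probe sets ran from -1.15 to 0.09. In the probe set with the highest mean, the SMAD anchor ZFYVE9 (-0.28), the corepressor SKIL (-0.28) and the SMAD phosphatase PPM1A (0.24) had smaller differences than TGIF1 (-0.61). Over all tested probe sets the differences ran from -0.28 to 0.005 for ZFYVE9 and from -0.28 to -0.05 for SKIL. For PPM1A they ran from 0.24 to 0.90. Of 24 tested target genes, 2 lay higher and 10 lower without overlap, with a median of -0.12. The list does not sort targets by whether TGF-beta induces or represses them. In other probe sets the difference reached 2.55 for COL1A1 and 1.23 for TAGLN, and -0.96 for ADAM12 and -0.70 for FN1. TGFBI, a secreted matrix protein induced by TGF-beta, read 8.66 and 8.98 in LM2, against 10.47 and 12.08 in SN12C, and its SN12C arrays stood 1.60 units apart. ID3 and ID2, inhibitors of basic helix-loop-helix factors, had differences of -1.33 ± 0.83 and -1.03 ± 0.44 (limma adjusted p = 0.679 and 0.618). Against SN12C replicate 1 alone these were -0.31 and -0.48. TGFB1I1, a focal adhesion adaptor also called Hic-5, read 10.81 and 10.30 in LM2, against 9.39 and 9.10 in SN12C, at 1.31 ± 0.24 (limma adjusted p = 0.390).

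**Figure D3:**
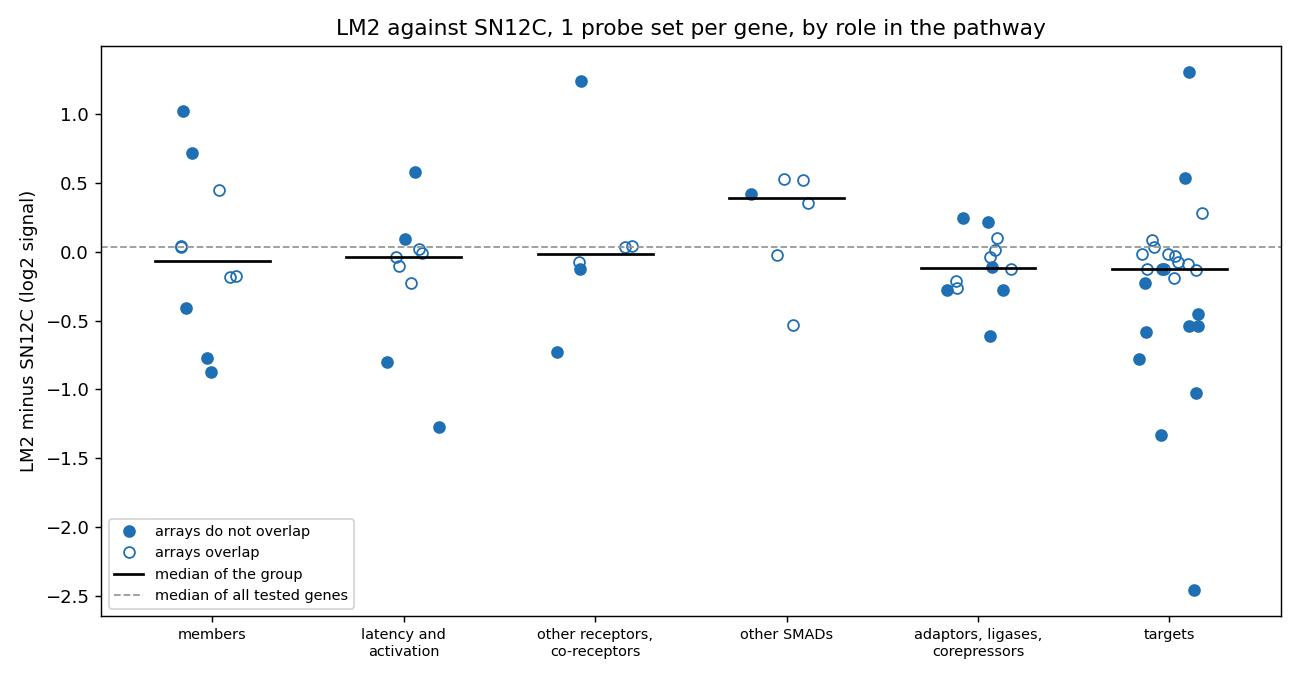
LM2 minus SN12C in log2 signal (y axis) for the 10 members and the tested genes of each group of the pathway list (x axis), with 1 point per gene. Filled points are genes whose LM2 and SN12C arrays do not overlap, black bars are group medians and the dashed line is the median of all tested genes, 0.03. Of the 24 targets, 10 filled points lie below 0 and 2 above. The targets are not sorted by whether TGF-beta induces or represses them.

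The genes whose profile over the 5 arrays was most like those of TSC22D1 and SMAD3, the members with the largest LM2 differences in the probe set with the highest mean, were found by the root mean square difference after centring each gene. For TSC22D1 they were AMDHD1 at 0.066, PSTPIP2 at 0.087 and CFDP1 at 0.090, where TSC22D1 itself deviated from its own mean by 0.77. CFDP1, for example, read 12.29 on LM1, 11.27 and 11.39 on LM2, and 10.13 and 10.69 on SN12C. For SMAD3 they were B4GALT5 at 0.051, PAG1 at 0.054 and QTGAL at 0.059, where SMAD3 deviated by 0.42. B4GALT5 read 10.38 and 10.44 in LM2, against 11.05 and 11.40 in SN12C. The search ran over 15024 genes and 5 arrays.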

How the data were processed

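Biotin-labelled RNA of 5 samples was hybridised to Affymetrix arrays, per the labels. The deposited values are log2 signals made by the authors with RMA and Partek, per the submitters' processing notes, which name no version. RMA normalizes by quantiles, which hides any shift of the whole array. Array medians lay between 6.51 and 6.57. The number of arrays limits the precision.

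Of 54675 probe sets, 62 controls were left out. The platform table gave 1 gene for 41097, several for 1801 and did not list 11777. Gene IDs were matched to GRCh38.p14 names, which changed 0 symbols. Probe sets with at least 2 arrays at or above the 40th percentile of all values, 6.03, were tested. Limma 3.58.1 in R 4.3.3 (lmFit, eBayes) fitted 1 mean per line over all 5 arrays, with 2 residual and 1.21 prior degrees of freedom, and Benjamini-Hochberg adjustment over all 33376 probe sets at 0.05. The labels call the arrays of a line biological replicates and name no separate cultures, so p-values reflect array-to-array spread that may be technical. Both LM2 arrays had equal values in 14.9% of tested probe sets and both SN12C arrays in 5.44%, which shrinks the estimated spread there.

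The fit of LM2 against SN12C was tested on simulated data with known changes, under 2 settings of the spread. It recovered 0% of changes of 1 unit in both settings. For changes of 2 units it recovered 32.8% and 46.3%, and for 4 units 62.1% and 66.7%, with 1 false call in each setting. Changes of 1 unit were thus not detected by this design in the simulation. The rule for named genes took all members, up to 4 genes of each pathway group with the largest differences without overlap, and the 3 nearest genes of 2 members. Members and lists were chosen with earlier results of these data known. Of the pathway list, ITGB8 and DACT1 did not pass the filter, and 2 genes are not reported here. Markers were PAX8, KRT8 and others of renal, epithelial, fibroblast, endothelial and leukocyte cells. Of 32 markers 19 were tested, and their median LM2 difference was -0.09 for renal, 0.35 for epithelial, 0.24 for fibroblast, -0.30 for endothelial and 0.09 for leukocyte markers. Alternatives changed the filter, normalization, eBayes options, choice of probe sets, tied values and arrays, left out replicates in turn or added a replicate block. SN12C and LM2 arrays of the same number had deviations from their line means that correlated at 0.07 across probe sets. Sequences are from RefSeq. Figures were drawn with matplotlib 3.10.9.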

Additional observations from a re-analysis of the deposited data

How the results depend on the processing

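At most 2 arrays a line limit the precision of every value. For LM2 against SN12C 0 probe sets were called in all alternatives but 1. Leaving out each replicate in turn gave 0 to 8105 calls, the highest without SN12C replicate 2, where the spread comes from the LM2 pair alone. With the replicate block 0 were called (lowest limma adjusted p = 0.702), as without it, and the numbers share only a label. For LM1 against SN12C there were 0 to 10386 calls with a replicate left out, 1156 after quantile normalization and 282 without tied values. For LM2 against LM1 these were 0 to 5776, 325 and 13. The highest LM1 count came without SN12C replicate 2, with 6379 without replicate 1, and the LM2 against LM1 count was 5776 without either. TGFB2 in LM1 just passed after quantile normalization, at 0.96, and TGFBR1 and TSC22D1 passed without an SN12C replicate in the cases given above.

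Some differences changed sign or came to 0, and no member difference, among these or the others, had passed in limma with all replicates. After quantile normalization TGFB1 stood at -0.13 and TGFBR2 at -0.12 in LM2 against SN12C, and TGFBR2 at -0.075 in LM1 against SN12C. With a replicate left out, LM2 against SN12C ranged from -0.19 to 0.26 for TGFB1, from -0.33 to 0.41 for TGFBR2 and from 0 to 0.89 for TGFBR1. LM1 against SN12C ranged from -0.24 to 0.13 for SMAD7, from -0.30 to 0.43 for TGFBR2, from -0.23 to 0 for TGFB3 and from -0.012 to 0.25 for TGFBR3. LM2 against LM1 ranged from -0.065 to 0.013 for TGFBR2 and from -0.12 to 0 for TGFB3. The cause was not tested. The LM2 differences of TGFB2 (0.66 to 0.77), TSC22D1 (0.62 to 1.42), TGFBR3 (-0.94 to -0.60), SMAD3 (-1.12 to -0.64) and SMAD7 (-0.59 to -0.22) kept their sign with each replicate left out.

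The count of members without overlap was 5 genes, and 15 probe sets when every tested one was counted. With a replicate left out it ranged from 6 to 8 of 10, against 55.1% to 85.5% of all genes, an alternative chosen after seeing the data, as were the next. Members whose tested probe sets gave both signs ranged from 0 to 1 of 8 in LM2, against 32.6% to 39.8% of all such genes. In LM1 without an SN12C replicate they ranged from 4 to 6, against 52% to 55.1%.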
